A study of Homo sapiens with 49 samples.

Results

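The retinoic acid receptor and retinoid genes were examined as a set of 9 genes: RARA, RARB and RARG, which encode the retinoic acid receptors, RXRA and RXRB, which encode their retinoid X receptor partners, CYP26A1 and CYP26B1, which encode enzymes that break down retinoic acid, CRABP2, which encodes a retinoic acid carrier, and DHRS3, which encodes an enzyme that turns retinaldehyde back into retinol. The genes were chosen by name, and each was given a window made of its GENCODE gene body on hg19 with 50 kb on each side. They are 9 of 20098 protein-coding genes on chromosomes 1-22 and X, and all 9 were found. The measurements were chromatin immunoprecipitation with sequencing (ChIP-seq) peak lists, and 1599 of the peaks fell in the windows.

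Retinoic acid is made from retinol (vitamin A) inside the cell, carried by binding proteins to the nucleus, and there binds a receptor heterodimer of a RAR and an RXR. The heterodimer sits on retinoic acid response elements, which are direct repeats of a short half-site, and exchanges corepressors for coactivators when the ligand binds. RARB, CYP26A1, CRABP2 and DHRS3 are textbook retinoic acid targets, so the pathway acts back on its own genes. In breast and endometrial cells, the RARA gene is also known as a target of the estrogen receptor.

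Ishikawa cells, a line from an endometrial adenocarcinoma, and T-47D cells, a line from a breast ductal carcinoma, were held for 5 days in medium stripped of hormones. They were then given DMSO, the vehicle, or 10 nM 17β-estradiol (E2), for 1 h before ChIP of proteins and 8 h before ChIP of histone marks. The exceptions were SIN3A, compared between stripped and full medium, and Ishikawa H3K36me3, made in full medium. There were 45 lists, 21 from Ishikawa and 24 from T-47D, over 12 targets, and only RNA polymerase II (RNAPII) in T-47D had replicates, 2 with DMSO and 2 with E2. Each line is a single established line, so every other difference between treatments below compares 1 library with 1 library, has no replicate check and carries no test. Fold enrichment is the ratio of ChIP signal at a peak summit to the local background estimated by the peak caller.

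List length differed widely, from 2 to 46282 peaks, and 7 lists had no peak in any of the windows: Ishikawa RARA DMSO, H3K36me3, MYC DMSO and MYC E2, and T-47D H3K27me3 E2, LSD1 DMSO and MAX DMSO. The depth behind the lists is unknown. For a peak that is absent from a short list, missing signal in the cells and missed detection cannot be told apart. H3K4me3 at a start site was found for 6 and 6 of 7 endometrial markers in the Ishikawa DMSO and E2 lists and for 1 and 0 of them in T-47D. For luminal breast markers it was found at 2 and 3 of 7 in Ishikawa and at 4 and 4 in T-47D, for epithelial markers at 5 of 5 in all 4 lists, and for blood markers at 1 and 1 of 3 in Ishikawa and at 0 and 0 in T-47D. At GREB1, an estrogen receptor target used to check the treatment, RNAPII had 14 and 2 peaks with DMSO and 117 and 109 with E2. T-47D JUN ran the other way at GREB1, with 75 peaks in the library labelled DMSO and 39 in the library labelled E2.

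Sequence matches to retinoic acid response elements near annotated starts came first, since they are places where RARA binding would be looked for. Below, an element means such a match, and whether it works as a response element was not tested. Both strands of the 250 bp before and 50 bp after each of 74 annotated start sites of the 9 genes were searched for the half-sites AGGTCA or AGTTCA or GGGTCA or GGTTCA, repeated in the same direction with 5, 2 or 1 bases between them. Of the 9 genes, 4 held such a repeat: RARB, CYP26A1 and RXRB with a spacing of 5 and CRABP2 with a spacing of 1. Among promoters of all 20098 protein-coding genes, searched at the 5′ end of the gene record, 0.408% held any of these repeats and 0.0398% held one with a spacing of 5. Searched in that same way, at the 5′ end of the gene record alone, 1 of the 9 genes (CRABP2) held a repeat and 0 held one with a spacing of 5, so the 4 found over all annotated starts are not to be read against these shares. The elements are shown on the strand of the gene with 30 bases on each side, with the half-sites in capitals (GRCh37), because they carry the comparison with the RARA peaks.
RARB, plus strand, chr3:25469671-25469747, repeat centred 22 bp after the nearest annotated start: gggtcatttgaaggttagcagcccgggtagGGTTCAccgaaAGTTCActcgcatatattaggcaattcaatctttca
CYP26A1, plus strand, chr10:94833530-94833606, repeat centred 82 bp before a start: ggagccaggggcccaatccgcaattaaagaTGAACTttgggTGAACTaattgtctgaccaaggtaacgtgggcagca
RXRB, minus strand, chr6:33163218-33163294, repeat centred 119 bp before an internal start: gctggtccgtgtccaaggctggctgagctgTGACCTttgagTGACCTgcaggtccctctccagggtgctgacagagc
CRABP2, minus strand, chr1:156675790-156675862, repeat centred 218 bp before the start: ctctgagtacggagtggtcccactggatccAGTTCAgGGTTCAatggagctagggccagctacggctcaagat
In the CYP26A1 and RXRB elements the half-sites read on the opposite strand.

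No RARA peak covered any of these elements in any of the 4 RARA lists. The nearest RARA peak to the CYP26A1 element lay 1.64 kb upstream, in the Ishikawa E2 list. The nearest to the CRABP2 element lay 35.0 kb away (T-47D DMSO), the nearest to the RXRB element 53.8 kb away (Ishikawa E2), and the nearest to the RARB element 1742 kb away. Other targets did cover some of them. The CYP26A1 element lay under peaks of 8 lists, namely H3K4me3 in all 4 lists (12.8-fold and 15.2-fold in Ishikawa with DMSO and E2, 9.18-fold and 8.42-fold in T-47D), Ishikawa SIN3A in both media (10.7-fold stripped, 8.07-fold full), Ishikawa LSD1 with E2 (11.1-fold) and Ishikawa H3K27me3 with E2 (10.0-fold). The CRABP2 element lay under peaks of 10 lists, with H3K4me3 again in all 4. No list had a peak over the RARB or the RXRB element.

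RARA peaks in the windows were few. The Ishikawa RARA list held 137 peaks with DMSO and 2883 with E2, and the windows held 0 and 8 of them. With E2 they lay in the windows of 5 genes, RARA, RARG, RXRB, CYP26A1 and DHRS3, where 28.3% of all protein-coding windows held a peak of the same list, against 2.57% with DMSO. The T-47D lists held 844 peaks with DMSO and 755 with E2, with 2 and 2 in the windows of RARA and CRABP2, where the share over all windows was 12.7% and 12%. RARA sites in all windows of Ishikawa therefore came from the E2 list alone, and those in T-47D were the same 2 places in both lists. No RARA peak lay within 250 bp of an annotated start site of any of the 9 genes, and the share of all protein-coding genes with such a peak was 0.697% and 8.82% in Ishikawa with DMSO and E2, and 4.21% and 4% in T-47D. RARB, RXRA and CYP26B1 had no RARA peak in their windows in any list.

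The 12 peaks formed 9 regions, 7 of them in the Ishikawa E2 list alone, and 4 of the 9 lay at a start site of a neighbouring gene. Of the 8 Ishikawa E2 peaks, 1 overlapped a T-47D RARA peak, where 26.7% of the whole list did. The share at start sites of neighbouring genes was not counted over whole lists. The region in both lines was at the start of CDC6, a DNA replication licensing factor 21.3 kb upstream of the RARA gene (chr17:38443880-38444180). It was 7.74-fold enriched in Ishikawa with E2, 6.69-fold in T-47D with DMSO and 6.44-fold in T-47D with E2. In the RARG window, a RARA peak stood at the start of CSAD (8.00-fold, chr12:53574322-53574639), which makes taurine, and also within 250 bp of a start of ZNF740. Another stood at the start of ESPL1 (6.24-fold, chr12:53661928-53662175), which encodes separase. In the CRABP2 window the T-47D region was at the start of MRPL24, a mitochondrial ribosomal protein (4.91-fold with DMSO and 4.46-fold with E2, chr1:156710846-156711198). In the RXRB window a 5.04-fold peak was 48.7 kb upstream of RXRB (chr6:33217065-33217252). It lay outside protein-coding genes, the only genes used to place peaks.

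The other 4 regions lay in or nearest to a retinoid gene itself, all in the Ishikawa E2 list. In an intron of the RARA gene, an 8.04-fold peak (chr17:38478699-38478884) had its summit 436 bp upstream of an internal RARA start site. Upstream of CYP26A1, a 6.45-fold peak (chr10:94831727-94831923) had its summit 1.47 kb before the first annotated start, outside protein-coding genes. At DHRS3, an 8.98-fold peak lay in an intron, 4.11 kb upstream of an internal start (chr1:12660277-12660638), and a 9.41-fold peak lay 17.7 kb beyond the 3′ end of the gene (chr1:12609697-12610243). These 2 DHRS3 peaks had the highest fold enrichments of RARA in any window, and all 12 stood between 4.46-fold and 9.41-fold.

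None of the 9 regions held a direct repeat of the kinds searched within 75 bp of the RARA summit, that is in 151 bp. Over whole lists the share of summits with such a repeat was 0% in Ishikawa with DMSO, 0.312% in Ishikawa with E2, 0.119% in T-47D with DMSO and 0.533% in T-47D with E2. It was 0.163% for Ishikawa TAF1 and 0.240% for Ishikawa JUN, both with E2. At least 1 half-site was present in 4 regions (the RARA intron, CYP26A1 and both DHRS3 regions, with 2 in the DHRS3 intron), where 28.1% of all Ishikawa E2 RARA summits held at least 1. The sequences of the regions in the RARA, CYP26A1 and DHRS3 genes follow on the plus strand of GRCh37 with half-sites in capitals on either strand; they were picked after their values were seen, as the regions nearest to retinoid genes.
RARA intron, chr17:38478732-38478882: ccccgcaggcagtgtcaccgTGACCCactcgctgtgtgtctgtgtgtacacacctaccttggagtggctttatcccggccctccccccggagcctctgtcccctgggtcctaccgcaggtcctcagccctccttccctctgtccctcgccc
CYP26A1 upstream, chr10:94831688-94831838: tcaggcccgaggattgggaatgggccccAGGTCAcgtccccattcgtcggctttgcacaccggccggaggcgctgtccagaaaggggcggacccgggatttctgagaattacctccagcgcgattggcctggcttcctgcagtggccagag
DHRS3 intron, chr1:12660353-12660503: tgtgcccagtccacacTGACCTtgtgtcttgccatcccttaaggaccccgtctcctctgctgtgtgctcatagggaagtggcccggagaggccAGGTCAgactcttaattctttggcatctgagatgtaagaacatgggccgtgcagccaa
DHRS3 beyond the 3′ end, chr1:12609872-12610022: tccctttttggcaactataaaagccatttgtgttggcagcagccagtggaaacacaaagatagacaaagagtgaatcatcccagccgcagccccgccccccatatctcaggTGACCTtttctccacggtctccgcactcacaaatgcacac

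A different short motif, which was not part of the planned search, was common at RARA summits. CCAAT, the box bound by the factor NF-Y at many promoters, was found on either strand in 4 of the 9 regions, at CDC6, ESPL1, RXRB and CYP26A1. Over the whole RARA lists it was found in 82.4% of summits in Ishikawa with DMSO, 49.7% in Ishikawa with E2, 76.4% in T-47D with DMSO and 84.0% in T-47D with E2. For the same 151 bp around summits of other lists made with E2 the share was 14.7% for Ishikawa JUN, 12.4% for LSD1, 11.7% for TAF1 and 9.83% for H3K4me3, and 13.4% for T-47D TAF1. Promoters of all protein-coding genes, which were longer at 300 bp, held it in 35.8%. The AP-1 site (TGA, any base, TCA) was counted as well, also outside the planned search, and was found in 2 of the 9 regions. It was in 1.47% and 10.3% of RARA summits in Ishikawa with DMSO and E2 and in 2.63% and 1.47% in T-47D. For Ishikawa JUN with E2 its share was 14.5%. The CDC6 region, the place with a RARA peak in both lines, is shown with CCAAT on either strand in capitals.
CDC6 start in the RARA window, chr17:38443948-38444098: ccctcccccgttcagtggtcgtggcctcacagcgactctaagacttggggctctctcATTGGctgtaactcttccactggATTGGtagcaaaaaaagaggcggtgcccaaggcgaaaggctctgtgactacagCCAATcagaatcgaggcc

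The RARA regions were shared with many other targets. All 8 Ishikawa E2 RARA peaks were overlapped by at least 1 bp by LSD1, TAF1 and H3K4me3 peaks of the same treatment and 6 of 8 by JUN, where the shares over the whole RARA list were 68.7%, 80.5%, 79.1% and 77.8%. The DHRS3 intron region had no peak of any Ishikawa list with DMSO. With E2 it had JUN at 54.1-fold, LSD1 at 49.3-fold, H3K4me3 at 10.7-fold, TAF1 at 9.59-fold and RARA at 8.98-fold, and the JUN and LSD1 summits lay 92 bp and 49 bp from the RARA summit. The RARA intron region was alike in that JUN (36.2-fold), LSD1 (25-fold), TAF1 (10.6-fold) and RARA (8.04-fold) were found with E2 and not with DMSO, while H3K4me3 was there in both (13.8-fold and 24-fold). The DHRS3 region beyond the 3′ end already had JUN at 14.7-fold and LSD1 at 15-fold with DMSO, against 37.5-fold and 28.6-fold with E2. In Ishikawa the CDC6, CSAD, ESPL1 and MRPL24 starts had TAF1 and H3K4me3 with both treatments and SIN3A in both media. In T-47D the regions at these starts were overlapped by H3K4me3 with both treatments, but by TAF1 at CSAD alone (4.47-fold with E2) and by SIN3A at CDC6 alone. The MRPL24 region, where the RARA peaks were of T-47D, thus had neither a TAF1 nor a SIN3A peak over it in that line. The T-47D TAF1 lists held 4591 and 5645 peaks, DMSO before E2, and the SIN3A lists 75 and 649, stripped before full. In Ishikawa the CYP26A1 upstream region carried TAF1 at 15.4-fold with DMSO and 13.9-fold with E2, and LSD1 at 13.3-fold with E2 alone. It also had H3K4me3 at 36.8-fold with DMSO and 35.9-fold with E2, and SIN3A at 29.6-fold in stripped medium. The RXRB region had Ishikawa H3K4me3 at 11.5-fold and 12.2-fold and TAF1 at 8.24-fold and 6.27-fold, DMSO before E2. Ishikawa SIN3A in stripped medium was 21.0-fold there, and T-47D RNAPII in the first DMSO library was 54.5-fold.

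**Figure D1:**
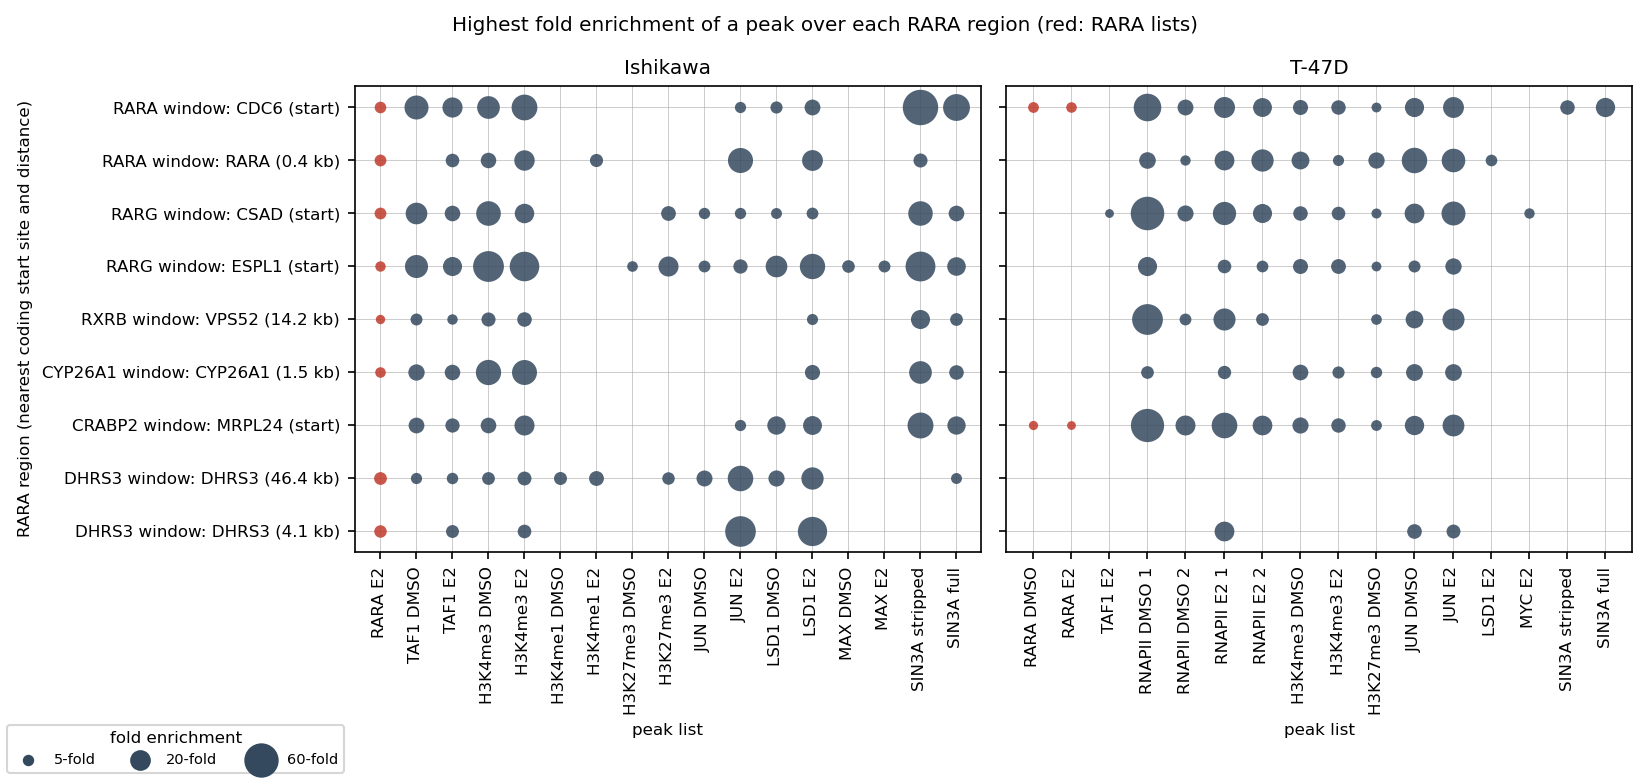
Each dot is the highest fold enrichment of a peak that overlaps 1 of the 9 RARA regions (rows, named by the window and the nearest coding start site) in 1 peak list (columns), with dot area in proportion to fold enrichment and RARA lists in red. The DHRS3 intron row (4.1 kb) has Ishikawa dots with E2 alone, JUN at 54.1-fold and LSD1 at 49.3-fold, whereas the 4 start sites of neighbouring genes have dots with both treatments.

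T-47D cells had peaks of other targets at 8 of the 9 regions, the exception being the DHRS3 region beyond the 3′ end. At the RARA intron T-47D JUN was 37.4-fold and 32.1-fold in the libraries labelled DMSO and E2, H3K27me3 was 15.3-fold with DMSO, and LSD1, with 442 peaks in its E2 list, was 7.80-fold with E2. That was the single LSD1 peak of T-47D in all the windows. T-47D JUN peaks lay on RNAPII peaks nearly throughout: 106 of 108 in the windows with DMSO and 87 of 93 with E2 overlapped a peak of an RNAPII list, as did 92.6% and 92.2% of the whole JUN lists. Such overlap was not particular to JUN. It was found for 97.9% and 98.4% of the whole T-47D RARA lists, DMSO before E2, and for 80.2% of the H3K4me3 list with DMSO. The part of RNAPII in the T-47D JUN peaks was not tested.

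Most of the retinoid genes carried the promoter mark H3K4me3 at an annotated start site. A peak within 250 bp of an annotated start was present at 9 and 9 of the 9 genes in Ishikawa with DMSO and E2, where the share over all genes was 67.3% and 68.2%, at 8 in T-47D with DMSO (62.1%) and at 7 in T-47D with E2 (59%). CYP26B1 had the mark in Ishikawa, at 23.4-fold with DMSO and 27-fold with E2, and in neither T-47D list. RXRA had it in T-47D with DMSO, at 6.39-fold, and not with E2. Within 1000 bp of a start, both T-47D lists had a peak at 9 of the 9 genes. At the start of the gene record alone, the mark was at 7 and 7 genes in Ishikawa and at 6 and 5 in T-47D, DMSO before E2. The shares over all genes count any annotated start, so these last numbers are not to be read against them. RARB carried H3K4me3 at both an upstream and a downstream place in both lines, with the taller peak at the upstream place in Ishikawa and at the downstream place in T-47D. At the upstream place the peaks were 25.9-fold with DMSO and 29.9-fold with E2 in Ishikawa and 6.54-fold and 5.89-fold in T-47D (chr3:24870837-24872212 in the Ishikawa DMSO list). At the downstream place they were 12.6-fold and 10.5-fold in Ishikawa and 8.13-fold and 8.01-fold in T-47D (chr3:25469258-25469575 in the T-47D DMSO list). These downstream peaks ended before the direct repeat of the RARB promoter shown above.

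The other receptor genes had the mark in every list. RXRB had 20.7-fold and 24.5-fold in Ishikawa and 24.1-fold and 22.9-fold in T-47D, DMSO before E2. It shares its start with SLC39A7, which encodes a zinc transporter on the other strand. Both T-47D summits lay in a coding exon of SLC39A7, farther from the nearest RXRB start than either Ishikawa summit. Those T-47D peaks counted for RXRB because their edges reached within 250 bp of its start. The RXRB values of the 2 lines are thus not a comparison of the same place. RARG had 36.5-fold and 37.6-fold in Ishikawa and 12.9-fold and 10.8-fold in T-47D, DMSO before E2. RARA, with 10 annotated start sites, had its highest own-start peak at 19.1-fold and 29.7-fold in Ishikawa and at 18.3-fold and 13.5-fold in T-47D. The highest peaks of the 2 Ishikawa lists lay at different starts for RARA and for RARG, so those pairs are not the same place under both treatments. Among the target genes, CRABP2 had 27.6-fold, 23.6-fold, 12.8-fold and 10.4-fold, and DHRS3 had 23-fold, 31.7-fold, 11.8-fold and 9.62-fold, the T-47D pair of DHRS3 being 2 peaks that do not overlap. Fold enrichments of different lists were not normalised to one another, so the order between lines is a description of these lists.

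H3K27me3, the mark set by Polycomb repressors, was found at start sites of 6 of these genes in all, and most of its peaks lay on H3K4me3. Ishikawa had it at 1 gene with DMSO (RXRA, 2.5% of all genes) and at 6 with E2 (RARA, RARG, RXRA, RXRB, CYP26A1 and DHRS3, 25.4%). T-47D had it at 4 with DMSO (RARA, RARG, RXRA and RXRB, 22.5%) and at none with E2, where the list held 107 peaks against 6305 with DMSO. In the windows, 7 of 9 Ishikawa DMSO peaks, 22 of 22 Ishikawa E2 peaks and 25 of 27 T-47D DMSO peaks overlapped an H3K4me3 peak of the same line and treatment, and over the whole lists the shares were 81.5%, 96.3% and 85.7%. Their median width in the windows was 210 bp, 330 bp and 333 bp. RARB, CYP26B1 and CRABP2 had no H3K27me3 at a start site in any list.

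TAF1, a subunit of the general factor TFIID that marks assembled promoters, lay at a start site of 6 of the 9 genes in Ishikawa with DMSO (59.9% of all genes) and of 5 with E2 (55.8%). In T-47D it was at RARA and RXRB in both lists, where the share was 23% with DMSO and 27.9% with E2. Ishikawa TAF1 was 31.3-fold and 22.5-fold at RXRB with DMSO and E2, 23.7-fold and 15.9-fold at RARG, 23.7-fold and 14.0-fold at RXRA, and 12.6-fold and 11.2-fold at 2 different starts of RARA. DHRS3 went the other way, from 10.4-fold with DMSO to 22.3-fold with E2. CRABP2 had TAF1 with DMSO (6.61-fold) and not with E2. RARB, CYP26A1 and CYP26B1 had none within 250 bp of a start, although TAF1 was 11.2-fold and 11.9-fold in an intron of CYP26B1, with summits 499 and 544 bp upstream of an internal start.

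SIN3A, a corepressor scaffold, lay at a start site of 7 genes in Ishikawa in stripped medium (59.5% of all genes) and of 6 in full medium (50.5%), CRABP2 being the difference. The fold enrichments were 31.9 and 17.5 at RARA, 20.9 and 8.67 at RARG, 27 and 17.7 at RXRA, 23.5 and 12.1 at RXRB, 10.7 and 8.07 at CYP26A1, and 9.08 and 9.02 at DHRS3, stripped before full, with the 2 RARG values at different starts. MAX, the partner of MYC, was at the RXRA start alone, at 9.48-fold with DMSO and 11.5-fold with E2, where 10.1% and 4.39% of all genes had it. In T-47D the SIN3A lists held 75 and 649 peaks, and in the windows both had 1 peak, at the CDC6 start (12.1-fold stripped and 21.5-fold full). H3K4me1, a mark of enhancers and promoter flanks, was at a start of RARA, RARG and RXRA in Ishikawa with DMSO (8.59% of all genes) and of these and DHRS3 with E2 (7.4%).

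JUN and LSD1 in Ishikawa had more peaks in the windows with E2, as they had over the genome. JUN, a subunit of AP-1, went from 9 to 50 peaks in the windows, 5.56 times as many, and its list from 3768 to 18311, 4.86 times as many. LSD1, a histone demethylase that removes H3K4me1 and H3K4me2, went from 18 to 58 peaks, 3.22 times, and its list by 2.13 times. JUN peaks were more numerous with E2 at 6 of the 9 genes (65.7% of all windows) and LSD1 peaks at 7 (60.3%). JUN was gained at a start of RARA, RARG, RXRB and DHRS3 (28.8% of all genes), and LSD1 at a start of RARA, CYP26A1, CYP26B1, CRABP2 and DHRS3 (24.5%). The strongest JUN peak in the RARA gene with E2 was 47.6-fold, in an intron at chr17:38470595-38471290, where it was 14.0-fold with DMSO. In the windows 33 of the 50 JUN peaks with E2 overlapped an LSD1 peak with E2, and 56.2% did over the whole list.

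H3K4me1 moved in opposite directions in the list and in the windows of Ishikawa. The list was shorter with E2, at 0.794 times its length with DMSO, while the windows held 73 peaks with DMSO and 88 with E2. DHRS3 made up most of the surplus, with 2 peaks with DMSO and 14 with E2. RARA had 15 and 16, RXRA 27 and 31, CYP26B1 2 and 3, RARG 14 and 13, and CRABP2 11 and 9, so 4 windows had more (13.4% of all windows) and 2 had fewer (31.9%). In T-47D, H3K4me1 fell from 49 to 18 peaks in the windows and from 6408 to 1960 in the list, with fewer at all 4 of the windows that had any (23.1% of all windows).

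DHRS3 was the gene of the set with the widest change in Ishikawa. All 7 of RARA, TAF1, H3K4me3, H3K4me1, H3K27me3, JUN and LSD1 had more peaks in its window with E2 than with DMSO. MAX and MYC, also compared between E2 and DMSO in Ishikawa, had 0 and 0 peaks there and were left out of these 7. Numbers of peaks, DMSO before E2, were 0 and 2 for RARA, 3 and 6 for TAF1, 5 and 12 for H3K4me3, 2 and 14 for H3K4me1, 1 and 4 for H3K27me3, 1 and 11 for JUN and 2 and 11 for LSD1. The same pattern held in 0.348% of all protein-coding windows and in none of the other members, of which RARA came next with 5 targets. The 7 targets and the comparison were chosen after these values were seen, and each of the 14 lists is 1 library. The Ishikawa E2 lists of RARA, JUN, LSD1, H3K27me3 and H3K4me3 were longer than their DMSO lists, and those of H3K4me1 and TAF1 were shorter. In the JUN and LSD1 lists with E2 the DHRS3 peaks lay around the 5′ end of the gene, in introns and beyond its 3′ end. At an intron place near chr1:12654923-12655397, downstream of an internal DHRS3 start, TAF1 was 24.8-fold with DMSO and 29.3-fold with E2, LSD1 was 14.3-fold and 30.1-fold, and JUN was 35.4-fold with E2 and absent with DMSO. SIN3A had 2 peaks in stripped and 4 in full medium. T-47D had 4 and 4 JUN peaks in the window and 4 and 2 H3K4me3 peaks.

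**Figure D2:**
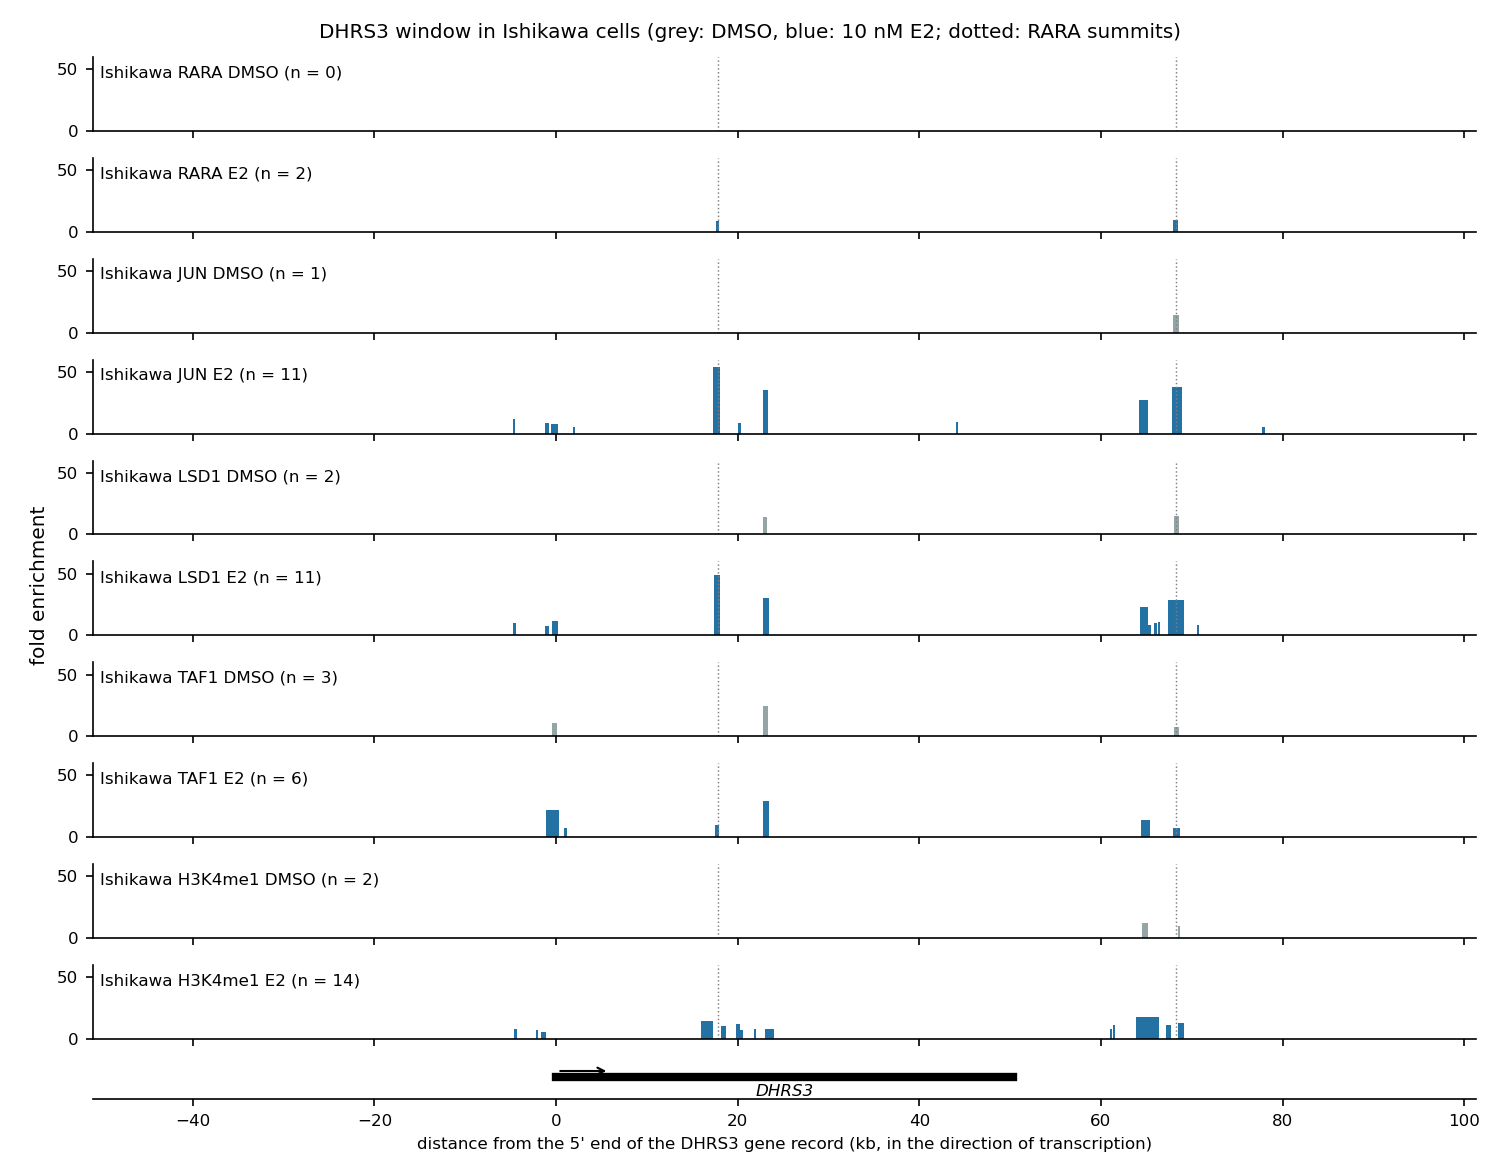
Peaks of 5 targets in the DHRS3 window of Ishikawa cells, 1 list per row, with DMSO in grey and E2 in blue; the x axis is the distance in kb from the 5′ end of the gene record and bar height is fold enrichment. JUN rises from 1 peak to 11 and LSD1 from 2 to 11, and the tallest bars of both stand at the RARA summit in the intron (dotted line).

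RNAPII in T-47D was the single target with replicates. The windows held 181 and 48 peaks with DMSO and 123 and 91 with E2. The mean log2 difference, E2 minus DMSO, was 0.18 (exact two-sided permutation test over the 6 assignments of 4 libraries, p = 1), and this design cannot give a p below 0.333. The 2 DMSO libraries differed 3.77-fold and the 2 E2 libraries 1.35-fold, so the treatments overlapped. The whole lists held 39371 and 21291 peaks with DMSO and 46282 and 23433 with E2, so the first list of either treatment was the longer. No member had both E2 numbers above both DMSO numbers or both below them, where 4.26% and 0.726% of all windows did. The labels do not say whether the replicates came from separate cultures.

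RNAPII covered length separated by treatment at RARA, where it was higher with E2 by a narrow margin, and at RARB, where it was lower. The gene body was covered by peaks over 48.3% and 9.70% of its length with DMSO and over 85.9% and 51.6% with E2, so both E2 libraries were above both DMSO libraries. Over the whole window the covered length was 28.6 and 6.43 kb with DMSO and 49.6 and 28.8 kb with E2. The gap between the lower E2 and the higher DMSO library was thus small beside the spread within either treatment, and the share of the gene body was a measure added after the data were seen. Numbers of peaks overlapped, at 39 and 10 with DMSO and 33 and 46 with E2, and the longest peak was 3621 and 2159 bp with DMSO and 9276 and 2535 bp with E2. Covered length was higher in both E2 lists for RARA alone of the set (1.71% of all windows) and lower in both for RARB alone (4.1%), where it was 647 and 641 bp with DMSO and 210 and 475 bp with E2. The strongest peak of the RARA window lay at a different place in each of the 4 libraries, in the first DMSO library at GJD3 (75.9-fold) and in the second at the CDC6 start (14.5-fold).

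Gained RNAPII regions were defined as peaks in both E2 lists that met no DMSO peak. There were 3 gained regions and 0 lost ones, and RARA was the only member with any, where 4.31% of all windows had a gained and 1.54% a lost region. The first lay in an intron at chr17:38471517-38471914 (10.6-fold and 8.15-fold in the 2 E2 lists), 2731 bp upstream of an internal start. The second lay in an intron at chr17:38496641-38496816 (10.7-fold and 5.69-fold), 898 bp upstream of an internal start. The third lay beyond the end of RARA in an exon of GJD3, a gap junction gene, at chr17:38517030-38517995 (15.2-fold and 7.95-fold). The numbers depended on which libraries were required. The number gained was 25 without the first DMSO library, 3 without the second, 8 without the first E2 library and 17 without the second. The number lost was 79 without the second DMSO library. Leaving out a library loosens the definition, so a rise alone does not show that the number rests on that library.

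**Figure D3:**
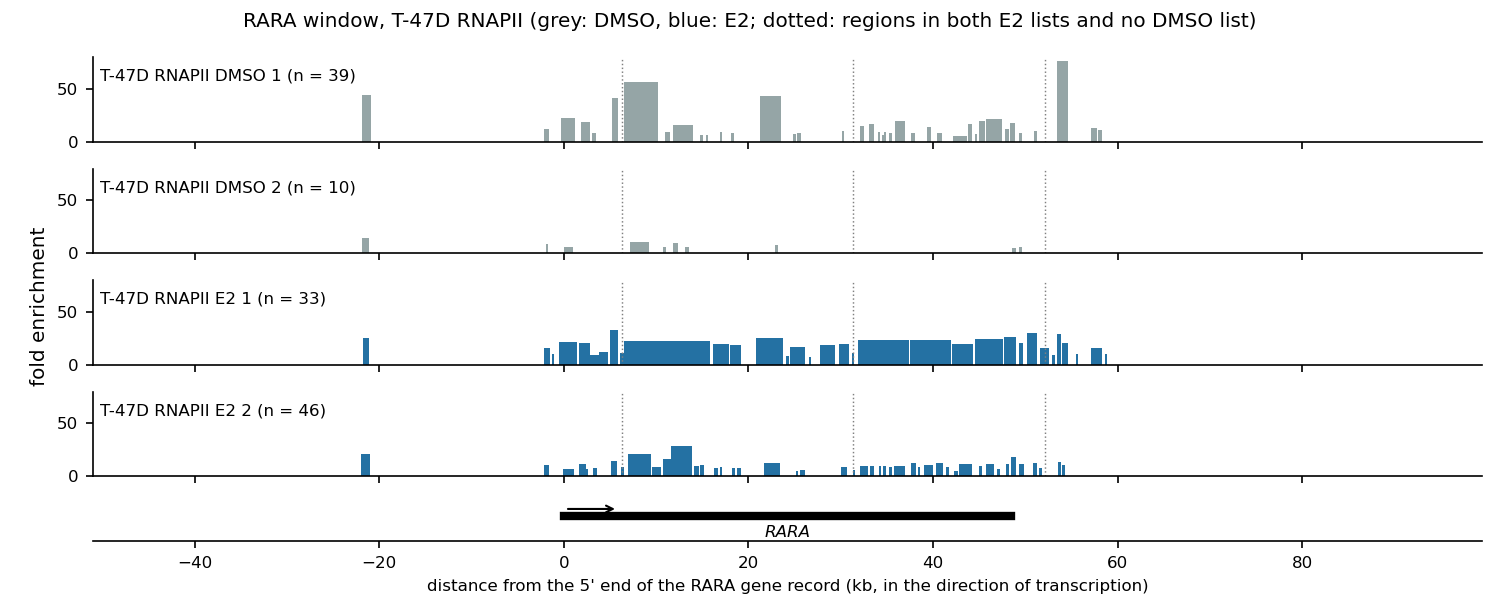
RNAPII peaks of the 4 T-47D libraries in the RARA window (grey DMSO, blue E2), plotted by distance in kb from the 5′ end of the gene record with fold enrichment as bar height; dotted lines mark the 3 gained regions. The E2 libraries cover 85.9% and 51.6% of the gene body and the DMSO libraries 48.3% and 9.70%.

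Numbers of RNAPII peaks overlapped between the treatments for the other genes too. A peak at an own start was present in all 4 lists for RARA, RARG, RXRB and CRABP2 (45.6% of all genes). RXRB had 9 and 8 peaks with DMSO and 11 and 6 with E2, with own-start values of 48.9-fold and 15.8-fold against 38.6-fold and 16.7-fold. CRABP2 had 29 and 16 peaks with DMSO and 29 and 13 with E2, and RARG 21 and 9 against 13 and 12. RXRA varied widely between replicates, with 72 and 3 peaks with DMSO and 29 and 11 with E2, and the 111-fold peak of the first DMSO library at RXRA was the highest RNAPII peak in the windows. DHRS3 had 4 and 0 peaks with DMSO and 6 and 1 with E2, and CYP26A1 had 4 and 0 against 1 and 0. CYP26B1 had 0 in all 4. In the same line it lacked H3K4me3 within 250 bp of a start, though both lists had a peak within 1000 bp. RARB had RNAPII at its downstream start in the first library of each treatment (11.5-fold with DMSO and 10.7-fold with E2).

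**Figure D4:**
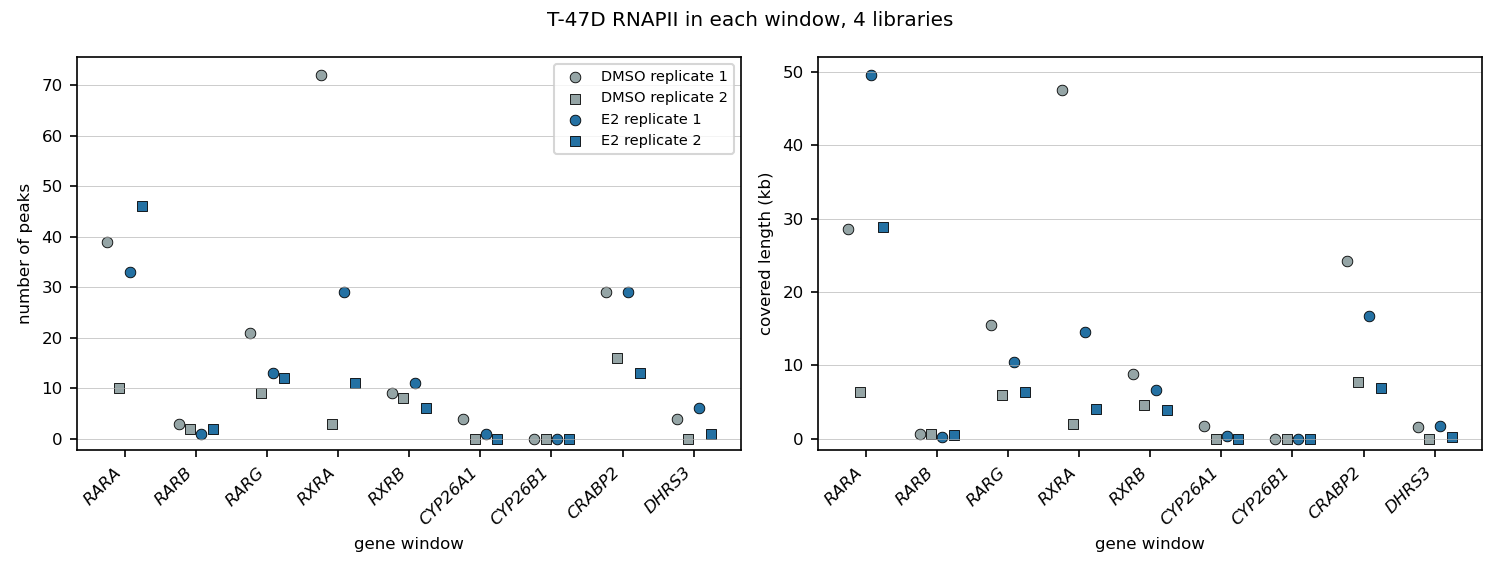
Number of RNAPII peaks (left) and covered length in kb (right) in each window for the 4 T-47D libraries, 1 point per library. For RARA the 2 blue E2 points lie above both grey DMSO points in covered length (49.6 and 28.8 kb against 28.6 and 6.43 kb) and not in number.

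The remaining targets of T-47D gave few peaks or overlapped those above. JUN was at a start of the same 6 genes in both libraries, RARA, RARG, RXRA, RXRB, CRABP2 and DHRS3, where 57.8% of all genes had it in the library labelled DMSO and 60.5% in the library labelled E2. In the windows it had 108 and 93 peaks, with the strongest in the RARA intron in the library labelled DMSO (37.4-fold) and at the start of HSD17B8 in the RXRB window in the library labelled E2 (45.1-fold). MYC had 1 peak with DMSO, in the RARA window (11.6-fold), and 3 with E2, in the windows of RARG, RXRA and CRABP2. Its lists held 601 and 1822 peaks, and 8.10% and 20.9% of all protein-coding windows had one, DMSO before E2. MAX had 1 with E2, in the CRABP2 window at 11.4-fold, where the share of all windows was 19.5%.

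**Figure D5:**
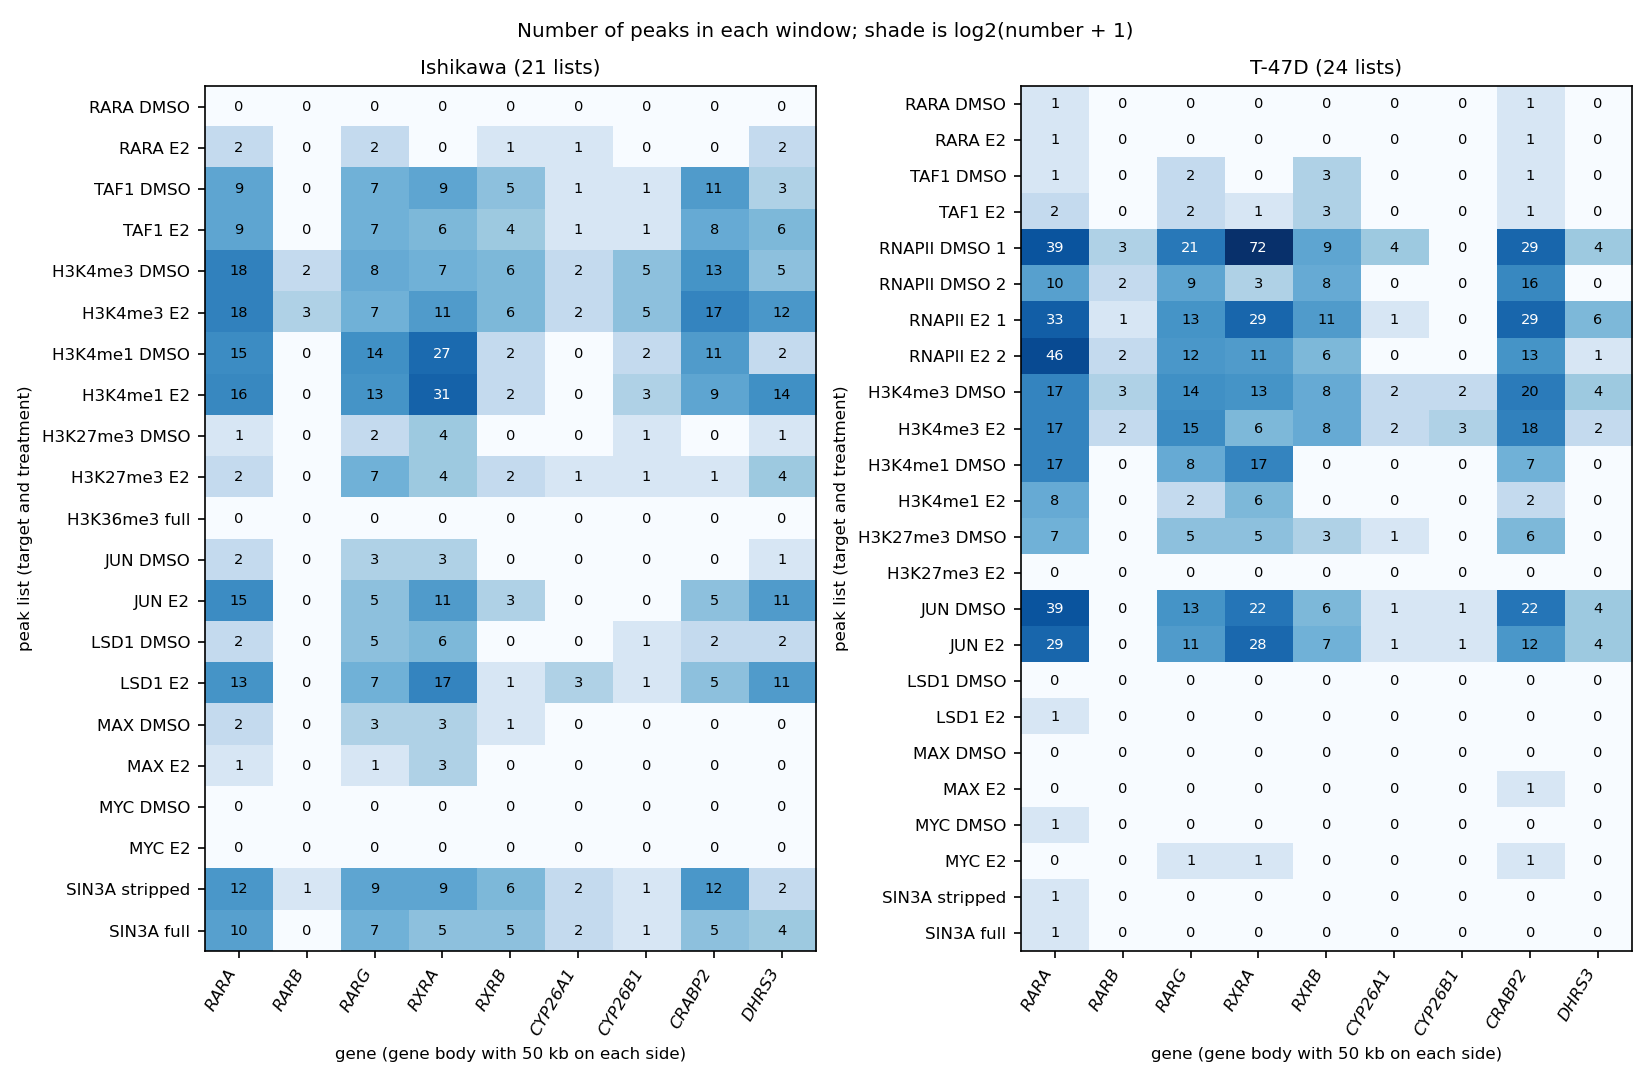
Number of peaks of each of the 45 lists (rows) in the window of each of the 9 genes (columns), Ishikawa left and T-47D right, with darker cells for higher numbers. CYP26B1 has 0 RNAPII peaks in all 4 libraries, and the RARA row of Ishikawa goes from 0 in all columns with DMSO to 8 peaks with E2; windows differ in length from 104 to 1010 kb, so columns are not comparable in number.

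Of 26 other retinoid pathway genes, RARA peaks were in the windows of 0 and 4 in Ishikawa with DMSO and E2 and of 0 and 1 in T-47D, where 2.57%, 28.3%, 12.7% and 12% of all protein-coding windows held one. Among those with E2 in Ishikawa were ALDH1A2, which makes retinoic acid, with 2 peaks, TGM2, a transglutaminase induced by retinoids, with 1, and CYP26C1, whose peak is the one upstream of CYP26A1. In T-47D with E2 it was MEIS1, a homeobox gene, with 1. H3K4me3 was at a start of 19 and 19 of the 26 in Ishikawa and of 13 and 12 in T-47D, where the shares over all genes were 67.3%, 68.2%, 62.1% and 59%. The windows of STRA6, which takes up retinol, and LRAT, which stores it as an ester, held no RARA peak in any of the 4 lists.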

How the data were processed

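ChIP-seq peak lists of 45 libraries were used, and the 4 input libraries were not analysed here. Per the submitters' processing notes and the study's methods, the authors aligned reads to hg19 with Bowtie 1.1.2 and called peaks per library with MACS2 2.1.0.20140616, and replicates were not pooled. The deposited narrowPeak files hold a score, the fold enrichment at the summit as a ratio, and −log10 p-values and q-values. The lowest deposited −log10 p-value was 10.0, so weaker peaks are absent; the lists give no read depth.

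Genes and start sites came from GENCODE release 44 lifted to GRCh37, and sequences from GRCh37. The lists use 25 chromosomes, all in the reference, and 4 peaks on the mitochondrial chromosome end beyond it. Peaks were placed by an overlap of at least 1 bp in Python 3.11.15 with pandas 2.3.3, and the functions were tested on simulated data. The genes and lists were chosen with earlier results of these data known. Named by rule were all 9 genes, every RARA peak, peaks at own starts, the strongest peak per window, RNAPII gains and losses, and up to 6 pathway genes. Some pathway genes are not reported here.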

Additional observations from a re-analysis of the deposited data

Results flagged for a closer look

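Numbers of peaks in the 9 windows changed in opposite directions in the 2 lines for 6 targets, with 1 library per line and treatment, so that these differences were not tested. With E2 against DMSO, H3K27me3 rose by 13 peaks in Ishikawa (9 to 22) and changed by -27 in T-47D (27 to 0). H3K4me1 changed by 15 (73 to 88) and by -31 (49 to 18), and H3K4me3 by 15 (66 to 81) and by -10 (83 to 73). JUN changed by 41 (9 to 50) and by -15 (108 to 93), with the T-47D libraries as labelled. TAF1 changed by -4 (46 to 42) and by 2 (7 to 9), and MAX by -4 (9 to 5) and by 1 (0 to 1). List lengths moved in the same direction as the windows for each of these lists except Ishikawa H3K4me1.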

How the results depend on the processing

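With 1 library per group outside RNAPII, the alternatives change how peaks were counted. Keeping only peaks of at least 10-fold enrichment left 0 RARA peaks in the windows in Ishikawa with E2 and in both T-47D lists, and left H3K4me3 at a start of 5 and 4 genes in T-47D with DMSO and E2 and H3K27me3 at 1 in T-47D with DMSO. It gave E2 to DMSO ratios of window peaks of 14 for Ishikawa H3K27me3 (1 to 14 peaks) and 0 for T-47D H3K4me1 (2 to 0 peaks). The ratio was 2 for Ishikawa MAX (1 to 2 peaks, from a ratio of 0.556) and 1.26 for T-47D JUN (46 to 58 peaks, from 0.861). The MAX and JUN ratios were thus reversed, but ratios on so few peaks as those of H3K27me3, H3K4me1 and MAX can turn on single peaks. The full to stripped ratio was 0.426 for Ishikawa SIN3A (47 to 20 peaks). Exchanging the T-47D JUN labels gave 1.16. Gene bodies alone held 2 RARA peaks in Ishikawa with E2 and 0 in both T-47D lists, and windows of 100 kb held 1 and 15 in Ishikawa with DMSO and E2 and 6 and 4 in T-47D. H3K27me3 in Ishikawa with DMSO was at 2 genes within 1000 bp of a start and at 0 at the start of the gene record, where Ishikawa with E2 had 3 and T-47D with DMSO 1. The causes were not tested. The log2 difference of RNAPII peaks ranged from -0.77 without DMSO replicate 2 to 1.14 without DMSO replicate 1, and was -0.03 without E2 replicate 1. Gained RNAPII regions were 5 with a reciprocal overlap of 50% and 1 with at least 10-fold enrichment, and leaving out 1 library gave 3 to 25 gained and 1 to 79 lost.

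With the replicate number as a replicate block, the RNAPII log2 difference was 0.18 (exact permutation test, p = 1). Same-numbered libraries deviated together (r = 0.629 over 20098 windows, which are not independent), but there were only 2 pairs and the labels give no shared batch, so the numbers were not taken to pair the samples. The lists give no depth, so for a peak absent from a short list, missing signal and missed detection cannot be told apart.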
